A study of Mus musculus with 6 samples.

Results

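The secreted Wnt antagonists are 10 genes chosen by name and not by their values, namely Dkk1, Dkk2, Dkk3, Sfrp1, Sfrp2, Sfrp4, Sfrp5, Frzb, Wif1 and Sost. Their rows were found through the Ensembl identifiers of the GENCODE M21 annotation, and 8 of the 10 had a row among the 29616 genes of the table. Dkk1 and Sost were not analysed here. RNA sequencing of bone cells from C57BL/6 mice was compared between 3 control libraries and 3 libraries from mice given the synthetic glucocorticoid dexamethasone each day over 4 weeks (0.08 µg/g) beginning at an age of 8 weeks. By the account of the study, the cells had been sorted as Osteocalcin-positive from bones whose marrow was removed. The labels give no genotype, sex or vehicle for these mice, and neither they nor the methods say whether a library came from 1 mouse or from pooled mice. The study names saline as the control for its dexamethasone-treated mice, without naming these libraries. Values are given in the order of replicates 1, 2 and 3 throughout. If libraries share mice, the p-values measure only the spread between libraries, which may be technical.

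Wnt proteins are secreted signals that bind a Frizzled receptor and the co-receptor Lrp5 or Lrp6, which stabilizes beta-catenin and drives osteoblast differentiation and bone formation. The antagonists act outside the cell in different ways. The secreted frizzled-related proteins (Sfrp1, Sfrp2, Sfrp4, Sfrp5 and Frzb, also called Sfrp3) carry a domain like that of the Frizzled receptors and bind Wnts, as Wif1 does through a domain of its own. Dkk1 and Dkk2 and the osteocyte product sclerostin (Sost) bind the co-receptors instead, and Dkk3 is a divergent Dickkopf protein whose effect on Wnt signalling depends on the context. Glucocorticoids are known to alter the expression of several Wnt inhibitors in bone.

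Sfrp2, Dkk2 and Sfrp5 fell with dexamethasone and Wif1 rose. Dkk3, the antagonist with the highest level, was lower in all 3 dexamethasone libraries but missed the cut-off on the fold change. Sfrp4 had few reads and was higher in all 3 dexamethasone libraries, and Sfrp1 and Frzb were near the limit of detection. The test covered genes averaging 10 or more normalized counts across the libraries, where a normalized count is the read number over a size factor set for each library. A gene was called differentially expressed when its adjusted p-value was under 0.05 (limma, Benjamini-Hochberg over 17442 genes) and its level moved by 1 or more on the log2 scale, up or down. By these criteria 22.3% of all tested genes were called, 11.7% as higher and 10.6% as lower with dexamethasone. Among the 8 antagonists with a row, 5 passed the filter, and 4 of these were called, 3 lower and 1 higher. By the adjusted p-value alone all 5 passed, 4 lower and 1 higher, as did 72.5% of all tested genes, 37.2% higher and 35.2% lower. Dkk2 and Sfrp5 passed the filter through the control libraries, as their means with dexamethasone were under 10, so this count is a description. The groups did not overlap for 74.7% of all tested genes, nor for these 5 antagonists. In bulk RNA, fewer cells of a type and less RNA per cell cannot be told apart.

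**Figure D1:**
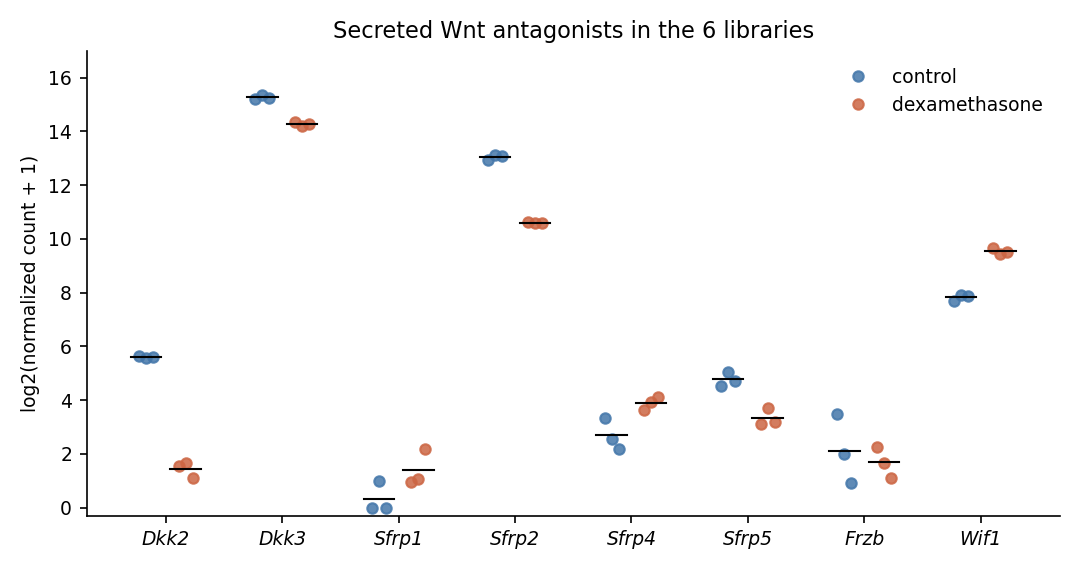
Level of the 8 secreted Wnt antagonists in the table, as log2(normalized count + 1), in each control (blue) and dexamethasone (orange) library; black lines are group means of the 3 libraries on this scale. Dkk2, Dkk3, Sfrp2 and Sfrp5 are lower in every dexamethasone library, Wif1 and Sfrp4 are higher in every one, and the groups overlap for Sfrp1 and Frzb.

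The sequences upstream of the 4 called antagonists are shown because their transcripts changed in both directions. Each is the 250 bases before the start of the gene in RefSeq on build GRCm38.p6, which differs from the build GRCm39 named in the submitters' processing notes. They lie at chr3:132085042-132085291 (plus strand) for Dkk2, chr3:83766071-83766320 (plus strand) for Sfrp2, chr19:42202253-42202502 (minus strand) for Sfrp5 and chr10:121033754-121034003 (plus strand) for Wif1. Capitals mark matches on either strand to 6 short motifs. The half-site of the glucocorticoid receptor was searched as AGAACA. The motif of the TCF/LEF factors, which are the partners of beta-catenin in the nucleus, was searched in a first form as CTTTGA. Its second form, which binds the same family of factors, was searched as CTTTGT. The motif of the RUNX factors, which include the osteoblast regulator Runx2, was searched as TGTGGT. The TATA box, an element of core promoters, was searched as TATAAA. The GC box, which Sp1-like factors bind, was searched as GGGCGG.
Dkk2: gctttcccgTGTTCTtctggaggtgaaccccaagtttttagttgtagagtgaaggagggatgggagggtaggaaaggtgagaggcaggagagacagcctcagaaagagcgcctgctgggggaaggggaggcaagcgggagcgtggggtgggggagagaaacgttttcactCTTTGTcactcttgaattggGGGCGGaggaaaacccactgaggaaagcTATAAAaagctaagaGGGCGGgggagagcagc
Sfrp2: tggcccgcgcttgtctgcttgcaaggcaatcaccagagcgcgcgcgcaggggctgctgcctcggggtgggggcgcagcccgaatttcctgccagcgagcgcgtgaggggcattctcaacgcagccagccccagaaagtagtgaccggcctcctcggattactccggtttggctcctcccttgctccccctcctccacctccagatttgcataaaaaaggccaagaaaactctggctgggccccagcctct
Sfrp5: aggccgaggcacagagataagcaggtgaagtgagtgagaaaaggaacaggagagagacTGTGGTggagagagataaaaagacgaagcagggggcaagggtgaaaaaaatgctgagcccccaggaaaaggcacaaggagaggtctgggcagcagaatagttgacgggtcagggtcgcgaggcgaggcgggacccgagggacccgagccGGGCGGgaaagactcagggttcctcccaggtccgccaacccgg
Wif1: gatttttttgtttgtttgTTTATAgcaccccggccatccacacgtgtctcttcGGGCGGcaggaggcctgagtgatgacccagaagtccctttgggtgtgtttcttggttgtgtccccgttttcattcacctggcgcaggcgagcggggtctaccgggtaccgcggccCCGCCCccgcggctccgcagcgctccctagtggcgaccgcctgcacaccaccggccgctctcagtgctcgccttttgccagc

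The Dkk2 sequence held 1 match to the half-site, 241 bases before the start, and 1 to CTTTGT, 80 bases before it. It also held TATAAA 32 bases before the start and GGGCGG at 60 and at 17 bases. The Sfrp2 sequence held none of these letters. The Sfrp5 sequence held TGTGGT at 192 bases and GGGCGG at 43 bases before the start. The Wif1 sequence held the GC box at 197 and, on the other strand, at 82 bases, and TATAAA on the other strand at 232 bases. Among the 32851 RefSeq windows of the same length, 16.1% held the half-site, 13.8% and 16.5% the first and the second TCF/LEF form, 14% the RUNX motif, 12.4% the TATA box and 32.7% the GC box. The full palindromic element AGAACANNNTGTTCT, which contains the half-site on both strands, was in 3 of these windows and in none of the 4 shown. These matches are a description of letters and not of binding.

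Among the proteins that bind Wnts, Sfrp2, a product of mesenchymal and osteoblastic cells, had the largest number of reads. It had 7833, 8956 and 8594 normalized counts in the controls, against 1597, 1537 and 1531 with dexamethasone. All dexamethasone libraries lay far below the lowest control library. Sfrp2 thus fell from 8461 ± 573 normalized counts (SD, n = 3) to 1555 ± 36.3 (SD, n = 3) (log2 fold change -2.44 ± 0.0446 SE, adjusted p = 3.11e-24 by limma). Only 1.55% of the tested genes had a lower fold change. In GENCODE M21 the gene Gm26771 on the opposite strand overlaps 16.1% of the exon bases of Sfrp2, and the libraries were stranded but the strand setting of the count is not given, so some of these reads may belong to Gm26771. No other gene overlaps the exons of the other 7 antagonists in this annotation.

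Sfrp5, a close relative of Sfrp2 known from adipose tissue, was present at a low level. It had 24, 33 and 29 reads in the controls, against 8, 11 and 7 with dexamethasone. The highest dexamethasone library remained under the lowest control library. Its mean fell from 26.6 ± 5.22 normalized counts (SD, n = 3) to 9.25 ± 2.38 (SD, n = 3), a change of -1.44 on the log2(value + 1) scale (95% confidence interval -2.14 to -0.73, adjusted p = 0.000609 by limma). The interval reaches changes smaller than the cut-off, in contrast to that of Sfrp2, which runs from -2.53 to -2.35.

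Sfrp4, whose loss in humans leads to thin cortical bone, had a mean of 9.91 normalized counts over the 6 libraries, just under the filter. It had 10, 5 and 4 reads in the controls, against 12, 13 and 14 with dexamethasone. The groups did not overlap, although control replicate 1 and dexamethasone replicate 1 lay close together. The mean was 5.86 ± 2.95 (SD, n = 3) in the control and 13.97 ± 2.42 (SD, n = 3) in the dexamethasone group, a ratio of 2.38 with an exact permutation p = 0.1 (two-sided), the smallest that 3 against 3 libraries allow. From the pooled reads the ratio was 2.37, with a 95% counting interval of 1.34 to 4.35 (exact binomial) that covers counting error only. With the filter lowered to a mean of 5, an alternative chosen after seeing the data, Sfrp4 was called higher (log2 fold change 1.197 ± 0.443 SE, adjusted p = 0.0201 by limma).

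Sfrp1, a Wnt-binding inhibitor whose loss increases bone mass in mice, had 0, 1 and 0 reads in the controls, against 1, 1 and 3 with dexamethasone. Each library was at or under the 3 reads that a count of 0 allows, so a difference was not detectable at this depth and no fold change is given. Frzb, a Wnt-binding protein known from cartilage, had 11, 3 and 1 reads in the controls, against 4, 2 and 1 with dexamethasone. The groups overlapped, and control replicate 1 held 11 of the 15 control reads (exact permutation p = 0.7, two-sided). Both genes were left out of the test by the filter.

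Wif1 was the only tested antagonist that rose. It had 203, 239.7 and 236 normalized counts in the controls, against 818, 699.8 and 731 with dexamethasone. Every dexamethasone library had more than the highest control library. Its mean rose from 226 ± 20.2 normalized counts (SD, n = 3) to 749.9 ± 61.4 (SD, n = 3) (log2 fold change 1.73 ± 0.0856 SE, adjusted p = 2.88e-15 by limma). Among the tested genes, 94.3% had a lower fold change. Wif1 is known from cartilage as well as from osteoblasts, and the summed level of 10 chondrocyte genes was also higher, at 6417 to 6862 normalized counts in the control and 22314 to 25194 in the dexamethasone libraries. Most of this sum was Sox9, with a mean of 4609 and 17406 normalized counts. Of these 10 genes 5 were tested, with Sox9, Col2a1 and Prg4 called higher and Hapln1 and Comp lower (Prg4 and Comp named after their values were seen). Prg4, at 1.06, fell under the cut-off at the same total (0.95), with a pseudocount of 5 (0.99), without control replicate 3 (0.98) and without dexamethasone replicate 2 (0.89). The median log2 fold change of the 5 was 1.06, but -0.599 without a filter and -1.09 at a mean of 5. The cartilage proteoglycan Acan had a mean of 1.92 normalized counts in the control and 2.89 in the dexamethasone group. The groups overlapped for Acan and for the untested Col9a1 and Matn1. The other untested genes, Matn3 (means of 9.88 and 1.89) and Col10a1 (10.5 and 4.23), were lower in every dexamethasone library. These 4 further genes were named after their values were seen. The part of cartilage cells in the rise of Wif1 was not tested.

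Among the antagonists of the co-receptors, Dkk2, which binds Lrp5 and Lrp6 and has a role in terminal osteoblast differentiation and mineralization, fell to near its limit of detection. It had 53, 48 and 54 reads in the controls, against 2, 2 and 1 with dexamethasone. The control libraries were close to each other, and each dexamethasone library was under the limit of 3 reads. The mean fell from 47.7 ± 0.870 normalized counts (SD, n = 3) to 1.75 ± 0.527 (SD, n = 3), and the ratio from the pooled reads was 0.0373, with a 95% counting interval of 0.0119 to 0.0889. On the log2(value + 1) scale the fold change was -4.16 (adjusted p = 8.87e-10 by limma). This value depends on the number added, as it was -4.45 with 0.5 and -2.97 with 5. With 1 added, 0.281% of the tested genes had a lower fold change, a place that rests on this value. With the dexamethasone libraries set at the limit of 3 reads, Dkk2 was at least 14.9 times lower than in the controls.

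Dkk3 had 37764, 41389.8 and 39183 normalized counts in the controls, against 20943, 18943 and 19636 with dexamethasone. The groups were widely separated, with the lowest control library above the highest dexamethasone library. The mean was 39446 ± 1827 (SD, n = 3) in the control and 19840.4 ± 1016 (SD, n = 3) in the dexamethasone group. The log2 fold change, -0.99 ± 0.0415 (SE, adjusted p = 8.68e-17 by limma), was just short of the cut-off of 1, and its 95% confidence interval of -1.08 to -0.91 spans the cut-off. Whether Dkk3 was called depended on the processing. It was called at the same library total (-1.11), after quantile normalization (-1.13), with edgeR (-1.02) and DESeq2 (-1.0005) on the recovered reads, without control replicate 1 (-1.02) and without dexamethasone replicate 1 (-1.03). At the same total, the median of all tested genes shifted by -0.11, and relative to this shift the log2 fold change of Dkk3 was -0.99, short of the cut-off. After quantile normalization the shift was -0.0767, and relative to it the value was -1.06, past the cut-off.

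**Figure D2:**
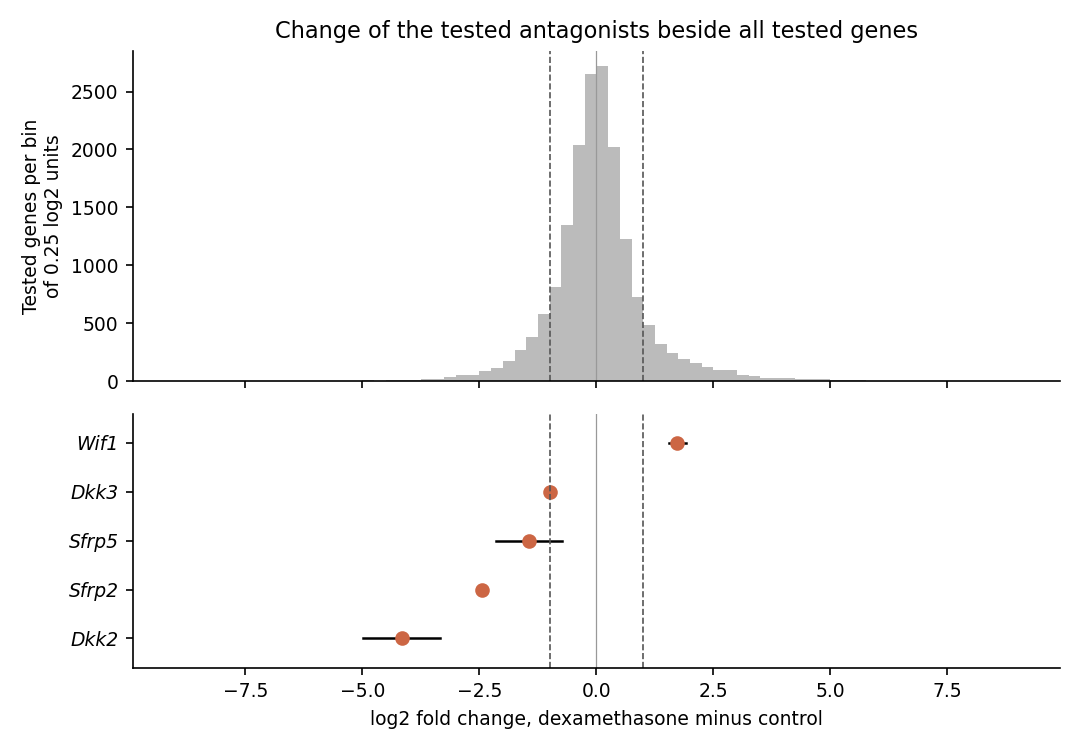
Top, number of tested genes in bins of the log2 fold change; bottom, log2 fold change (dexamethasone minus control) of the 5 tested antagonists with 95% confidence intervals from limma, with dashed lines at the cut-offs. Dkk2 (-4.16) and Sfrp2 (-2.44) lie in the lower tail of all genes, Wif1 (1.73) in the upper part, and Dkk3 (-0.99) on the cut-off.

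**Figure D3:**
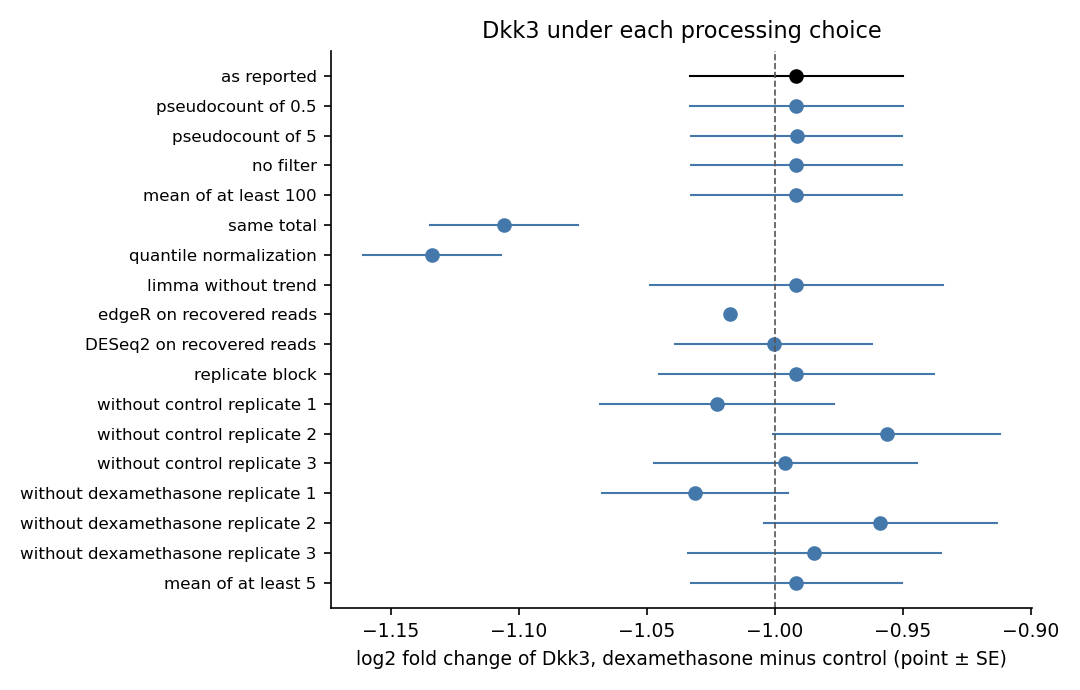
Log2 fold change of Dkk3 (x axis, point ± standard error, with no error for edgeR) as reported and under each other processing choice (y axis); the dashed line marks the cut-off of -1. All values lie between -1.13 and -0.96, and 6 of the 17 alternatives put Dkk3 past the cut-off.

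Levels were compared between genes as normalized counts per kilobase of merged exons in GENCODE M21. In the control group the order was Dkk3, Sfrp2, Wif1, Sfrp5, Dkk2, Frzb, Sfrp4 and Sfrp1. Dkk3 stood at 11743 ± 544 (SD, n = 3) normalized counts per kilobase, above 98.8% of the tested genes, and Sfrp2 at 3930 ± 266 (SD, n = 3), above 95.8%. Wif1 stood at 93.1 ± 8.31 (SD, n = 3), above 35.9%. Sfrp5, from 11.6 to 16.995 per kilobase, and Dkk2, from 12.7 to 13.1, did not differ beyond their spread, nor did Frzb and Sfrp4.

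With dexamethasone, Dkk3, Sfrp2, Wif1 and Sfrp5 kept the first 4 places of this order. Dkk3 stood at 5907 ± 302 (SD, n = 3) normalized counts per kilobase, still above 97.2% of the tested genes, whereas Sfrp2 stood at 722 ± 16.9 (SD, n = 3), above 68.9%. Wif1 stood at 309 ± 25.3 (SD, n = 3), above 51.7% of the tested genes. Sfrp4 was next, at 3.34 ± 0.58 (SD, n = 3), and the ranges of Frzb, Dkk2 and Sfrp1 overlapped below it. Dkk2 moved from the fifth place to the seventh. The order was the same with the longest transcript as the length and with all libraries rescaled to the same total.

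The summed level of the 8 antagonists was 15796 ± 809 (SD, n = 3) normalized counts per kilobase in the control and 6948 ± 342 (SD, n = 3) in the dexamethasone group. Dkk3 made up 74.4% ± 0.55 (SD, n = 3) of this sum in the control and 85.01% ± 0.21 (SD, n = 3) in the dexamethasone group. The share of Sfrp2 was 24.9% ± 0.54 (SD, n = 3) and 10.4% ± 0.30 (SD, n = 3), and that of Wif1 0.589% ± 0.029 (SD, n = 3) and 4.44% ± 0.14 (SD, n = 3). The other 5 antagonists each made up less than the smaller share of Wif1. Without Dkk3 the sum was 4053 ± 275 (SD, n = 3) in the control and 1041 ± 40.5 (SD, n = 3) in the dexamethasone group.

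Ratios between genes within a library do not depend on how the libraries are scaled, and 7 of them were computed from the levels per kilobase. Dkk3 exceeded Sfrp2 3.09, 2.96 and 2.92 times in the controls, against 8.41, 7.90 and 8.22 times with dexamethasone. Sfrp2 exceeded Wif1 43.5, 42.1 and 41.1 times in the control libraries and 2.20, 2.48 and 2.36 times in the dexamethasone libraries. The antagonists thus changed unequally among themselves, beyond the spread between libraries. The ratio of the summed antagonists to the summed Wnt ligands was 6.46 ± 0.14 (SD, n = 3) in the control and 4.67 ± 0.075 (SD, n = 3) in the dexamethasone group. Without Dkk3 this ratio was 1.66 ± 0.067 (SD, n = 3) in the control and 0.70 ± 0.020 (SD, n = 3) in the dexamethasone group. The ratio of the Sfrp genes and Frzb to the Frizzled receptors, whose Wnt-binding domain they share, was 0.609 ± 0.027 (SD, n = 3) and 0.246 ± 0.0065 (SD, n = 3). All 8 antagonists together over the Frizzled receptors gave 2.44 ± 0.065 (SD, n = 3) and 2.34 ± 0.026 (SD, n = 3), with groups that were close but did not overlap. The sum of all 8 is mostly Dkk3, with a share of 74.4% in the control and 85.01% in the dexamethasone group. The sums without Dkk3 (4053 and 1041 per kilobase) and of the Sfrp genes and Frzb (3947 and 732) are mostly Sfrp2 (3930 and 722). The ratios with these sums thus mostly follow Sfrp2 in the numerator. Each of the 7 ratios had an exact permutation p = 0.1 (two-sided, 0.1 after Benjamini-Hochberg adjustment), the smallest the design allows, so that none could pass 0.05.

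**Figure D4:**
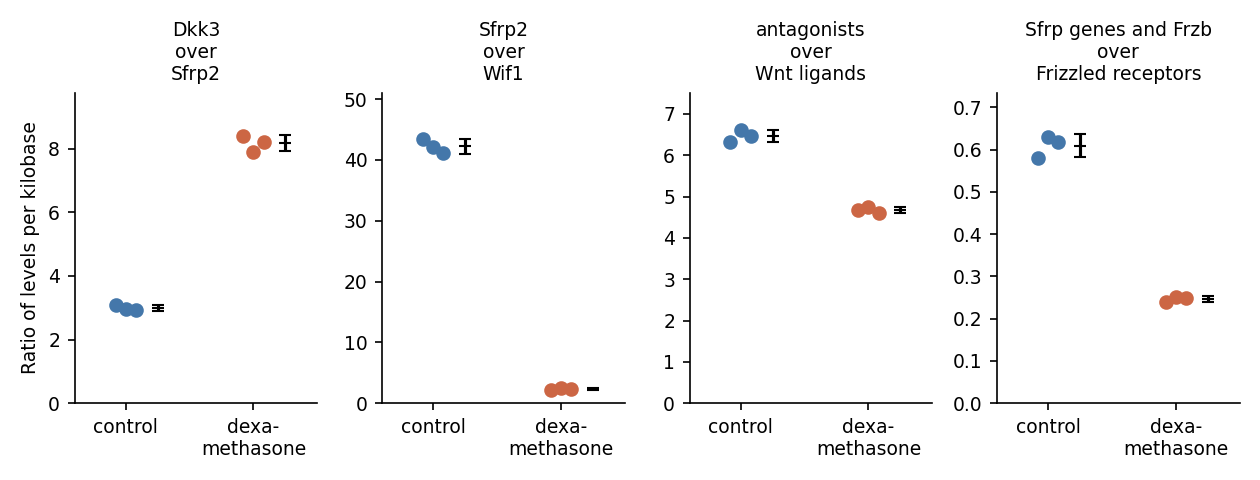
Ratio of levels per kilobase within each library (y axis, from 0) for 4 pairs of genes or gene groups, in control (blue) and dexamethasone (orange) libraries; black marks are the mean ± SD of 3 libraries. Dkk3 over Sfrp2 is higher in the dexamethasone libraries, and the other 3 ratios are lower in every dexamethasone library, with the widest gap for Sfrp2 over Wif1.

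The partners of the antagonists were described from lists of the pathway. Over all tested genes 22.3% were called, 11.7% higher and 10.6% lower, and each count of called genes below stands beside this share. Of 7 other secreted Wnt antagonists 6 were in the table, and Igfbp4, an IGF-binding protein that also binds a Frizzled receptor and Lrp6, was the member with enough reads to be tested. It fell from 22373 ± 854 normalized counts (SD, n = 3) to 8986 ± 464 (SD, n = 3) (log2 fold change -1.32, adjusted p = 9.59e-20 by limma). Of 8 receptors and partners of the antagonists 7 were tested, with Lrp4 called lower and Lrp5 higher, and their median log2 fold change was -0.36 (-0.57 after quantile normalization), against 0.00071 for all tested genes. Lrp4, the receptor that holds sclerostin in bone, fell from 23589 ± 766 normalized counts (SD, n = 3) to 4977 ± 148 (SD, n = 3) (log2 fold change -2.24, adjusted p = 3.23e-25 by limma). Lrp5, the co-receptor that Dickkopf proteins and sclerostin block, rose by 1.08 on the log2 scale (adjusted p = 4.94e-17 by limma), a value that was 0.96 at the same total and 0.86 after quantile normalization. Relative to the shift of all genes it was 1.075 and 0.94, so that at the same total the common shift alone took it under the cut-off. The log2 fold changes of its relative Lrp6 and of the Dickkopf receptor Kremen1 were -0.63 and -0.36. Summed per kilobase, Lrp5 and Lrp6 stood at 3071 ± 73.5 (SD, n = 3) in the control and 3041 ± 163 (SD, n = 3) in the dexamethasone group (exact permutation p = 0.8, two-sided), so that a difference in their sum was within the spread. The other tested partners, Mesd, Ror2 and Ryk, which serve the folding of the co-receptors or bind Wnts, had log2 fold changes of -0.14, 0.32 and -0.41.

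The signals that the antagonists act on changed in both directions. Of the 19 Wnt ligands 8 were tested, with 3 called lower and 1 higher and a median log2 fold change of -0.39, which moved to -0.85 with a filter at a mean of 100, -0.71 at a mean of 5 and -0.25 without a filter. The other called ligands, named after their values were seen, were Wnt5a (-1.15) and Wnt5b (1.02), of which Wnt5b lost its call at the same total (0.90), with edgeR (0.997) and without dexamethasone replicate 1 (0.96). Among the 3 ligands with the highest mean, Wnt10b and Wnt4 fell, with log2 fold changes of -1.85 and -4.26, and Wnt9a had one of -0.85. Of the 10 Frizzled receptors 8 were tested and 3 were called, all lower. These were Fzd2 (-2.30), Fzd7 (-1.31) and, named after its value was seen, Fzd8 (-1.28). The median of the 8 was -0.68. It was -0.47 without a filter, -0.89 at a mean of 100, and -0.80 at the same total and after quantile normalization. Fzd5 had a log2 fold change of -0.89, which was -1.01 at the same total and -1.08 after quantile normalization, or -0.89 and -1.004 relative to the shift of all genes. Of 9 R-spondins, which amplify Wnt signals, and their receptors, 7 were tested, 4 were called lower and 1 higher, and the median was -1.03, or -0.68 without a filter and -1.58 at a mean of 100. Rspo2 (-3.30), Rspo3 (-4.43), Rspo4 (-1.03) and the receptor-degrading ligase Rnf43 (-2.83) were the lower ones, named after their values were seen, whereas the receptor Lgr6 rose with 2.69. Rspo4 passed the filter through the control libraries, with a mean of 9.37 normalized counts with dexamethasone. It lost its call without control replicate 1 (-0.76), without dexamethasone replicate 1 (-0.83), with a pseudocount of 5 (-0.81) and after quantile normalization (-0.95). Lgr4 and Znrf3 had log2 fold changes of -0.33 and 0.43.

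Of 14 genes known as targets of Wnt signalling 11 were tested, 5 were called lower and 1 higher, and the median log2 fold change was -0.16. This median depended on the processing, as it was -0.94 without a filter, 0.156 at a mean of 100, -0.27 at the same total and -0.36 after quantile normalization. The 6 called genes, of which all but Ccn4 were named after their values were seen, were Axin2 (-1.69), Tcf7 (-1.10), Nkd2 (-3.46), Ccn4 (-2.48) and Tnfrsf11b (-1.79), which were lower, and Apcdd1 (2.29), which was higher. Nkd2 passed the filter through the control libraries, with means of 32.3 normalized counts in the control and 2.21 with dexamethasone. Its log2 fold change ranged from -3.93 to -2.39 over the alternatives. Axin2 and Nkd2 are feedback inhibitors inside the cell, and Apcdd1 is an inhibitor at the cell membrane. The targets with the highest mean, Ccnd1 and Cd44, had log2 fold changes of 0.55 and 0.47.

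**Figure D5:**
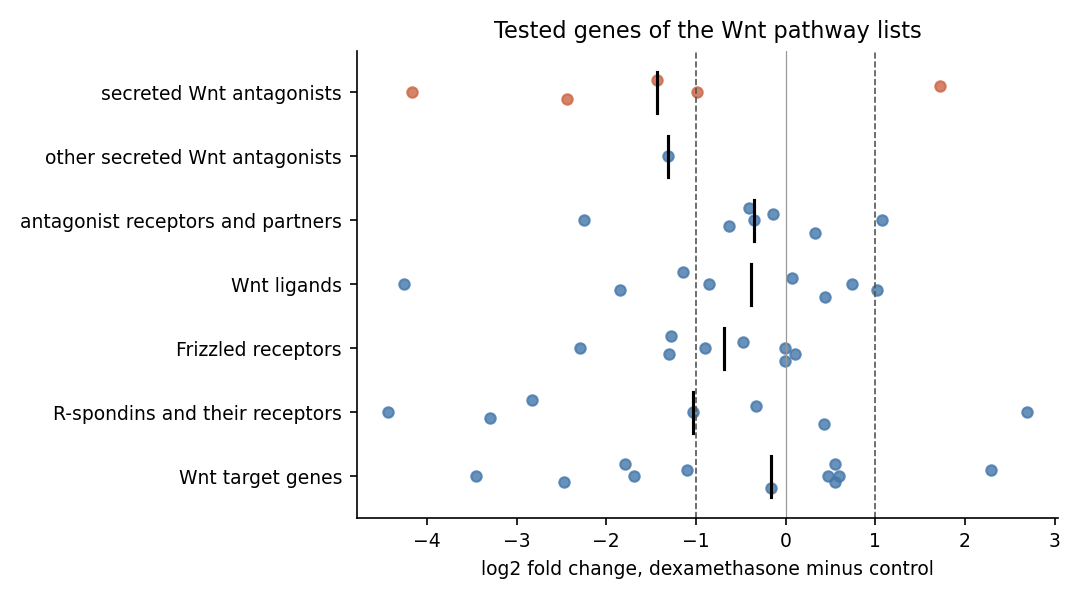
Log2 fold change (dexamethasone minus control) of each tested gene of the secreted Wnt antagonists (orange) and of 6 other lists of the Wnt pathway (blue); black bars are list medians, dashed lines the cut-offs, and the vertical spread within a row only separates points. Each list with more than 1 tested gene has genes on both sides of 0.

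The identity of the cells was checked with lists of marker genes, beside the 22.3% called over all tested genes. The reads counted to genes, as recovered from the table, summed to 72596611 to 89910728 per library. Osteocalcin (Bglap), the protein used for the sort, had 98.2 to 122 normalized counts in the control and 9.54 to 15.1 in the dexamethasone libraries. Its reads can be shared with the near-identical Bglap2 and Bglap3. Bglap2 was also lower, with means of 324 in the control and 31.3 with dexamethasone (log2 fold change -3.33, adjusted p = 1.80e-16 by limma). All 10 osteoblast genes were called, 9 lower and 1 higher. The 3 with the highest mean, Col1a2, Spp1 and Col1a1, had log2 fold changes of -1.05 (-0.99 after quantile normalization), 5.25 and -1.88. Of the osteocyte genes, whose cells are the known source of sclerostin, 6 were tested, 2 were called higher and 1 lower. The 3 with the highest mean, Pdpn, Irx5 and Dmp1, had log2 fold changes of 0.68, -3.29 and 7.16. Of 5 tested fibroblast and tendon genes 1 was called higher and 1 lower. The higher one, Clec3b, passed the filter through the dexamethasone libraries, with means of 9.90 in the control and 21.1 with dexamethasone. Of 5 tested adipocyte and marrow stromal genes 3 were called higher, with a summed level of 7209 to 7725 in the control and 24034 to 24275 in the dexamethasone libraries. The 3 with the highest mean, Kitl, Cxcl12 and Fabp4, had group means of 1949 and 14444, 5095 and 7396, and 2.16 and 1448 normalized counts in the control and the dexamethasone libraries. Fabp4 thus passed the filter through the dexamethasone libraries. Lepr was the other gene called, and the untested adipocyte genes Adipoq and Plin1 had group means of 1.02 to 4.03. Of 4 tested hematopoietic genes 2 were called higher and 2 lower, with a summed level of 105 to 135 and of 787 to 838, of which Itgb2 and Cd53, both higher, made up the most. The lower ones, Laptm5 and Coro1a, passed the filter through the control libraries, with means of 6.41 and 6.79 with dexamethasone. Ptprc, which marks leukocytes, was untested with means of 2.48 and 4.71. The summed endothelial genes, of which 3 were tested and 0 called, stood at 364 to 402 and at 434 to 479. Most of this sum was Kdr, with means of 348 and 414 normalized counts (log2 fold change 0.25). Pecam1 and Tek had few reads and log2 fold changes of 0.74 and -0.75, and the groups overlapped for Tek. Cdh5 and Tie1 had too few reads to be tested. Of 8 tested glucocorticoid-response genes 6 were called, all higher. Among them Zbtb16 passed the filter through the dexamethasone libraries, with means of 0 in the control and 42.8 with dexamethasone. The part of these cell types in the changes of the antagonists was not tested.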

How the data were processed

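RNA was sequenced in 3 control and 3 dexamethasone libraries of bone cells, grouped by the treatment in the labels. The authors used STAR 2.7.10a for alignment and read counts per gene and DESeq2 1.36.0 for normalization, so that the deposited signal is a count over the size factor of its library. The build in the submitters' processing notes is GRCm39, and the annotation release and strand setting are not given in the sources used here. All values (100%) were whole multiples of the lowest value of their library, within a relative tolerance of 1e-06, so reads were recovered. Values were compared as log2(normalized count + 1) with limma 3.58.1 (with trend) in R 4.3.3, with Benjamini-Hochberg adjustment over 17442 genes. Alternatives were other pseudocounts, filters and scalings, edgeR 4.0.16 (3944 genes called, against 3894 with limma) and DESeq2 1.42.0 (3870), both run on these reads, a block for the replicate number, and each library left out. The methods were tested on simulated data. Replicates differed by more than sampling noise (chi-square per degree of freedom 3.52 to 29.6). The genes and lists were chosen with earlier results of these data known. Every antagonist and every tested other secreted antagonist, receptor or partner is named, and from each other list up to 3 tested genes with the highest mean could be named. Genes outside this rule were marker genes known for a cell type or were named after their values were seen. GENCODE M21 (GRCm38) gave symbols for 28087 of the 29616 genes, exon lengths and overlaps. RefSeq promoter windows matched 7 of the 10 antagonists. The limit for a 0 was set at 3 reads, and counting intervals cover counting error only.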

Additional observations from a re-analysis of the deposited data

How the results depend on the processing

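Sfrp2, Sfrp5, Dkk2 and Wif1 kept their direction and their call under all alternatives that tested them, of which there were 17 for Sfrp2 and Wif1 and 16 for Sfrp5 and Dkk2. Their log2 fold changes ranged from -2.62 to -2.40, -1.62 to -1.15, -4.76 to -2.97 and 1.61 to 1.77, in that order. Dkk3 gained a call at the same total (-1.11), after quantile normalization (-1.13), with edgeR (-1.02) and with DESeq2 (-1.0005), and lay between -1.03 and -0.96 with 1 library left out. Its adjusted p-value was between 2.71e-148 and 4.96e-05 over all alternatives. The cause was not tested beyond the shift of the median of all genes. With a filter at a mean of 100, which removes genes by construction, 2170 genes and 2 antagonists were called, and at an adjusted p-value under 0.05 alone 12645 genes. The share of higher calls was 2037 of 3894, 1775 of 3938 at the same total and 1350 of 2170 at a mean of 100. Without a filter and at a mean of 5, 5 antagonists were called, 2 of them higher, with Sfrp4 added. No pairing of libraries by replicate number was seen (correlations of deviations -0.0999, -0.105 and -0.0199), though 3 such values cannot exclude one. With the replicate block 3897 genes and 4 antagonists were called. The chondrocyte median, 1.06 as reported, was -0.599 without a filter, -1.09 at a mean of 5 and 1.90 at a mean of 100. That of the Wnt target genes, -0.16 as reported, was -0.94 without a filter and 0.156 at a mean of 100. The median of the fibroblast and tendon genes, 0.0219 as the main value, went to -0.179 without a filter and at a mean of 5, -0.381 at a mean of 100, -0.0856 at the same total, and lay between -0.139 and 0.1074 with 1 library left out. Of 1012 values of other named genes under the alternatives, 15 lost a call (Rspo4, Prg4, Wnt5b, Lrp5, Col1a2 and Coro1a), 3 gained one (Fzd5 and Tek) and none reversed. Bglap2, Laptm5, Clec3b and Zbtb16 were not among the genes followed in this way. With the longest transcript as the length, the share of Dkk3 was 73.0% in the control and 84.1% in the dexamethasone group.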
